A study of Mus musculus with 2 samples.

Results

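The cytosolic ribosome is the machine that translates messenger RNA in every cell, and its protein parts are encoded by genes named Rpl for the large subunit and Rps for the small subunit. The genes described here were taken by name: the symbol had to be Rpl or Rps followed by a digit, or Rpsa, Rplp0, Rplp1 or Rplp2, and names with -ps or Rps6k were left out. Of 27998 genes in the count tables, 87 had such a name and 86 also had at least 100 unique molecular identifiers (UMIs, each counting 1 captured RNA molecule) over both libraries. They comprise 52 large subunit and 34 small subunit names. The smallest members were Rpl39l with 107 UMIs and Rpl3l with 276, and Rpl10l, at 0 UMIs, was left out.

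The data are single-cell RNA libraries of live CD45+ cells sorted from subcutaneous tumours of C57BL/6J mice (WT) and of mice lacking CD94 (CD94-KO), a subunit of the NKG2 receptors of natural killer (NK) cells. Each genotype had 1 library, made from 5 tumour-bearing mice of 6 to 8 weeks. The tumour line and the deleted part of the CD94 gene are not given in the sources used here. With 1 library per genotype no test across mice was possible, so every interval below is an exact 95% interval for counting error only, and a difference between libraries cannot be told apart from a difference between genotypes.

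Ribosomal protein transcripts are among the most abundant in a cell, and their products are needed in matched numbers. Most of these transcripts begin with a C followed by a run of pyrimidines, the terminal oligopyrimidine (TOP) tract, through which the growth-sensing kinase mTOR and the RNA-binding protein LARP1 control their translation and stability. A few ribosomal proteins have a second gene copy, such as Rps27l beside Rps27, Rpl22l1 beside Rpl22 and Rpl36al beside Rpl36a, and some such copies are known to be used unequally between tissues.

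The start regions of the genes on which the results turn are shown to set the copies of a pair and the TOP-like run side by side. Each window holds 10 bases before the RefSeq start and 20 bases from it (GRCm38.p6, 5′ to 3′ on the gene's strand), and capitals mark a run of a C followed directly by at least 4 bases that are each C or T, read on the transcribed strand only, beginning within 5 bases of the start.
Rps27: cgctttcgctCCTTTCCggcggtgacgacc
Rps27rt: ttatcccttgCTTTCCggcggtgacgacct
Rps27l: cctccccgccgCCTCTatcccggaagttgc
Rpl22l1: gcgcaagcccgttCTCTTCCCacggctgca
Rpl36al: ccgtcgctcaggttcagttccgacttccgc
Rpl35: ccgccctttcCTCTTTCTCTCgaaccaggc
Rpl31: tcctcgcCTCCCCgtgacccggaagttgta
Rpl13a: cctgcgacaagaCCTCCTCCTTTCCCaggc
These windows lie at chr3:90213629-90213658 on the minus strand (Rps27), chr9:114982720-114982749 on the minus strand (Rps27rt), chr9:66946076-66946105 on the plus strand (Rps27l), chr3:28805498-28805527 on the plus strand (Rpl22l1), chr12:69184048-69184077 on the minus strand (Rpl36al), chr2:39005112-39005141 on the minus strand (Rpl35), chr1:39367841-39367870 on the plus strand (Rpl31) and chr7:45128726-45128755 on the minus strand (Rpl13a). Rps27l has a further annotated start, without the run. Read from the start base, Rps27 and Rps27rt carried the run exactly at the start, as did Rpl35. Rpl36al had none beginning within 5 bases of its start. In the windows of Rps27, Rpl35 and Rpl31, C or T bases also lie directly before the capitals, so the unbroken stretch begins upstream of the marked run. Over the 65 members with a RefSeq entry, 14 (21.5%) had the run exactly at a start, against 3.01% of 27025 genes in the same table. Beginning within 5 bases of a start, 30 members (46.2%) had it, against 21.2% of genes. A run of these letters describes the annotated start and is not a measurement of a TOP tract.

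In the gene annotation (GENCODE M21) the members lay on 19 chromosomes, and 4 of them, Rpl10, Rpl39, Rps4x and Rpl36a, on X. Rps27rt has 1 exon and shares 91.6% of its 31-base words with Rps27, so reads of this pair could be split by the authors' counting. Rpl6l is annotated as a processed pseudogene, and Rps19bp1 met the name rule but encodes a protein that binds Rps19 rather than a ribosome subunit. Over 50% of the 31-base words of 41 members also occurred in transcripts of other genes, with a median of 49.3% over the members.

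After removal of low-quality barcodes and likely doublets, 4388 WT and 4574 CD94-KO cells remained, with a median of 4768.5 and 7799 UMIs. Only 8 cell barcodes occurred in both libraries. Cells were sorted into gates by raw UMIs of marker genes, and 1888 WT cells (median 777 UMIs) and 942 CD94-KO cells (median 1504) entered no gate, while 379 and 440 met more than 1. The gates held the genes of their lineage that had not been used to draw them: Gzma reached 4769 and 5538 CPM (UMIs of a gene scaled to a fixed total for the gate) in the NK gate against 236 and 134 CPM in the T gate, and Lyz2 was at 10099.7 and 8746 CPM in the monocyte/macrophage gate. Ptprc, which encodes CD45, was at only 10.1 and 18.8 CPM in the stroma gate, which was drawn on collagen genes, so those cells went against the CD45+ sort. Klrd1, the gene of CD94, was at 676 CPM in the WT and 329 CPM in the CD94-KO cells of the NK gate, which does not check the labels because 3′ tags may lie outside the deleted part.

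Ribosomal protein genes took a very different share of the transcriptome in the different cell types, and the order was nearly the same in both libraries. In the NK gate they made up 33.9% of UMIs in WT and 30.3% in CD94-KO, and in the T gate 29.2% and 26.8%. Among conventional dendritic cells (the cDC gate) the share was 23.7% and 23.9%, among mature regulatory dendritic cells (the mregDC gate) 19.3% and 17.9%, and among plasmacytoid dendritic cells (the pDC gate) 21.4% and 22.9%. Cells of the monocyte/macrophage gate gave 16.9% and 15.95%, and the neutrophil gate, with 12 and 46 cells, gave 6.74% and 4.97%. The stroma gate gave 31.1% and 29.2%. The highest share, 36.1% and 31.9%, was in the B gate, which held 11 and 21 cells. The T gate was thus 1.73-fold [1.73 to 1.74] above the monocyte/macrophage gate in WT and 1.68-fold [1.67 to 1.68] in CD94-KO, and the NK gate 2.01-fold [2.01 to 2.02] and 1.90-fold [1.90 to 1.91]. These shares are relative to all RNA captured from a cell and do not count ribosomes.

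**Figure D1:**
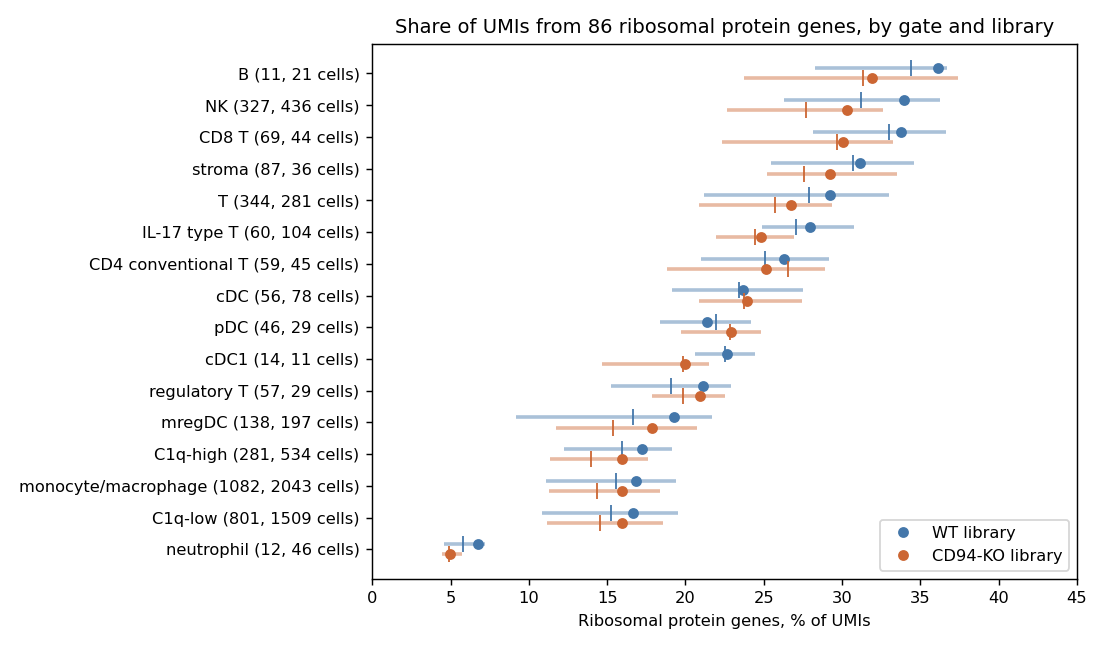
Share of UMIs from the 86 ribosomal protein genes (x axis, percent) in each gate (y axis, with WT and CD94-KO cell numbers). Dots give the share of summed UMIs, vertical ticks the median cell and pale bars the middle 50% of cells. The NK gate lies at 33.9% and 30.3% and the neutrophil gate at 6.74% and 4.97%.

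Within the T gate the share depended on the kind of T cell. CD8 T cells (69 WT and 44 CD94-KO) gave 33.8% and 30.1%, close to the NK gate. CD4 conventional T cells (59 and 45) gave 26.3% and 25.1%, and IL-17 type T cells, which had UMIs of Il17a or Cd163l1 and none of Cd4, Cd8a, Cd8b1 or Foxp3 (60 and 104), gave 28.0% and 24.8%. Regulatory T cells, the Foxp3-positive cells (57 and 29), were lowest at 21.1% and 20.9%, which is 0.625-fold [0.621 to 0.630] of the CD8 share in WT and 0.695-fold [0.687 to 0.704] in CD94-KO. Single cells of a gate spread widely around these values. The middle 50% of regulatory T cells lay between 15.3% and 22.9% in WT, below the 28.1% to 36.7% of CD8 T cells, while in CD94-KO the ranges of 17.9% to 22.5% and 22.4% to 33.3% overlapped.

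Macrophage states differed less. Cells high in complement C1q gave 17.2% and 15.9%, against 16.7% and 15.96% in cells low in C1q. Macrophages with Arg1, which encodes arginase, gave 17.9% and 16.6%, and those with the inflammatory genes Nos2 or Cxcl9 gave 15.3% and 14.6%, a ratio of 1.17 in WT and 1.14 in CD94-KO. Cycling cells, which carried UMIs of mitosis genes, were above the other cells of the monocyte/macrophage gate by 1.14-fold in WT (31 cells) and 1.22-fold in CD94-KO (18 cells). In the NK gate the same ratio was 1.07 in each library (25 and 20 cells), and in the T gate it was 1.005 [0.998 to 1.011] in WT (21 cells) and 0.908 [0.898 to 0.919] in CD94-KO (11 cells).

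The balance of the subunits barely moved between gates. Large subunit genes took 55.1% of ribosomal protein UMIs in WT and in CD94-KO over all kept cells. In the gates with at least 50 cells in each library they took between 53.6% and 55.8%.

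The higher share in lymphocytes was spread over most members. Of the 83 genes that could be compared, 58 were at least 1.5-fold higher in CPM in the T gate than in the monocyte/macrophage gate in both libraries, against 21.3% of 7515 genes tested. In the NK gate 71 of 83 were, against 20.5% of 7637 genes. The median ratio over the members was 1.76 in WT and 1.68 in CD94-KO for T cells and 2.01 and 1.91 for NK cells, where the median over all genes tested was 1.02, 1.10, 0.954 and 1.05. Rpl13a, a large subunit protein, was at 4716 CPM in the WT and 4889 CPM in the CD94-KO T gate against 1697 and 1615 CPM in the monocyte/macrophage gate, ratios of 2.78 and 3.03. The only member at least 1.5-fold lower was Rps27l, in the T gate as in the NK gate, where the share of all genes tested was 21.8% and 24.9%. In the cDC gate 23 of 83 members were at least 1.5-fold higher and 0 lower (7.19% and 18.9% of all genes tested). In the mregDC gate 4 of 83 were higher and 0 lower (11% and 27.1% of all genes tested), among them Rps27l, Rps19 and Rpsa.

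**Figure D2:**
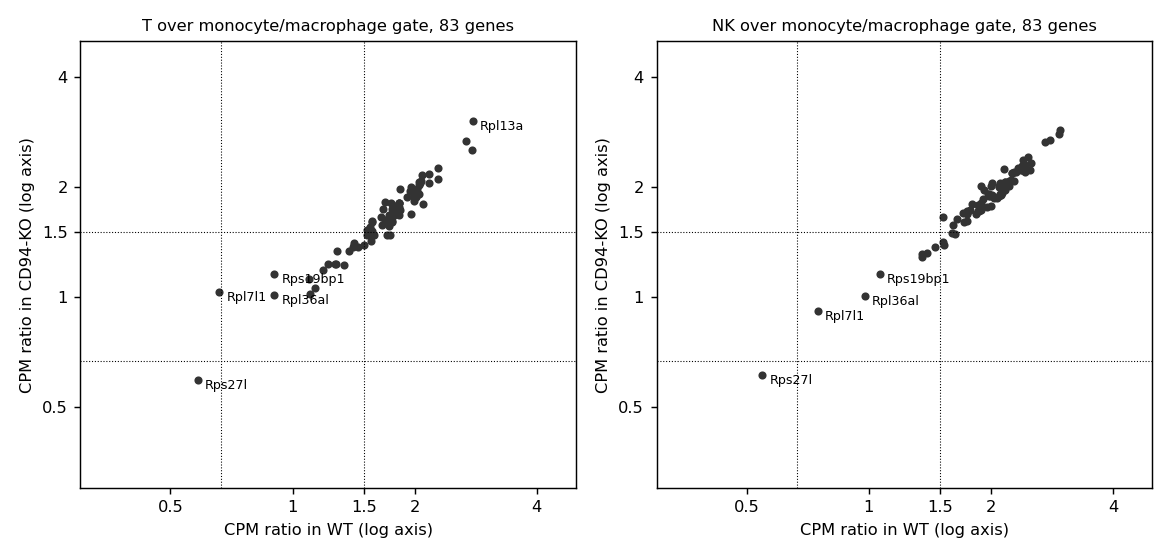
CPM ratio of each of 83 ribosomal protein genes in the T gate (left) or NK gate (right) over the monocyte/macrophage gate, WT on the x axis and CD94-KO on the y axis, both log axes; dotted lines mark 1.5-fold. Most genes sit above 1.5 in both libraries, and Rps27l is the lowest, at 0.584 and 0.594 in the T gate.

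Other genes of translation, taken from lists of known factors, were counted in the same way. The share of all genes tested that was higher is again 21.3% in the T gate and 20.5% in the NK gate. The share that was lower is 21.8% and 24.9%. Of 6 elongation factor genes, 3 were at least 1.5-fold higher in the T gate and 5 in the NK gate. Of 16 initiation factor genes, 4 and 7 were, the first near the share of all genes, and 1 was lower in each. Of 20 ribosome biogenesis genes, 3 and 5 were higher, near the share of all genes, and 1 lower. Of 74 mitochondrial ribosomal protein genes 11 and 13 were higher, a smaller share than among all genes, and 3 lower. The median ratio of the mitochondrial ribosomal protein genes was 1.16 and 1.15 in the T gate and 1.23 and 1.27 in the NK gate in WT and CD94-KO. In the mregDC gate 7 of 19 biogenesis genes were at least 1.5-fold below the monocyte/macrophage gate, with a median ratio of 0.649 in WT and 0.618 in CD94-KO, where 27.1% of all genes tested were lower.

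Against this shared pattern a few members stood out. For each member, its share among ribosomal protein UMIs in a gate was divided by the same share in all other gated cells of that library. The ratio passed 1.5-fold in the same direction in both libraries in 12 cases, in gates of at least 50 cells and with at least 50 UMIs. The measure removes the overall share, and between 79 and 84 of the 86 members were within 1.5-fold in the T, NK, monocyte/macrophage, cDC and mregDC gates in each library. On the scale of all UMIs the same gates against all other gated cells gave other counts. There 11 of 83 members were at least 1.5-fold higher in the T gate and 1 lower (17.2% and 19.6% of all genes tested), and 51 of 83 were higher in the NK gate and 1 lower (14.8% and 24.1%). In the monocyte/macrophage gate 1 of 85 was higher and 62 lower (14.7% and 31.4%). In the cDC gate 0 of 81 were higher or lower (7.6% and 14%), and in the mregDC gate 1 of 83 was higher and 1 lower (15.7% and 24.9%).

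**Figure D3:**
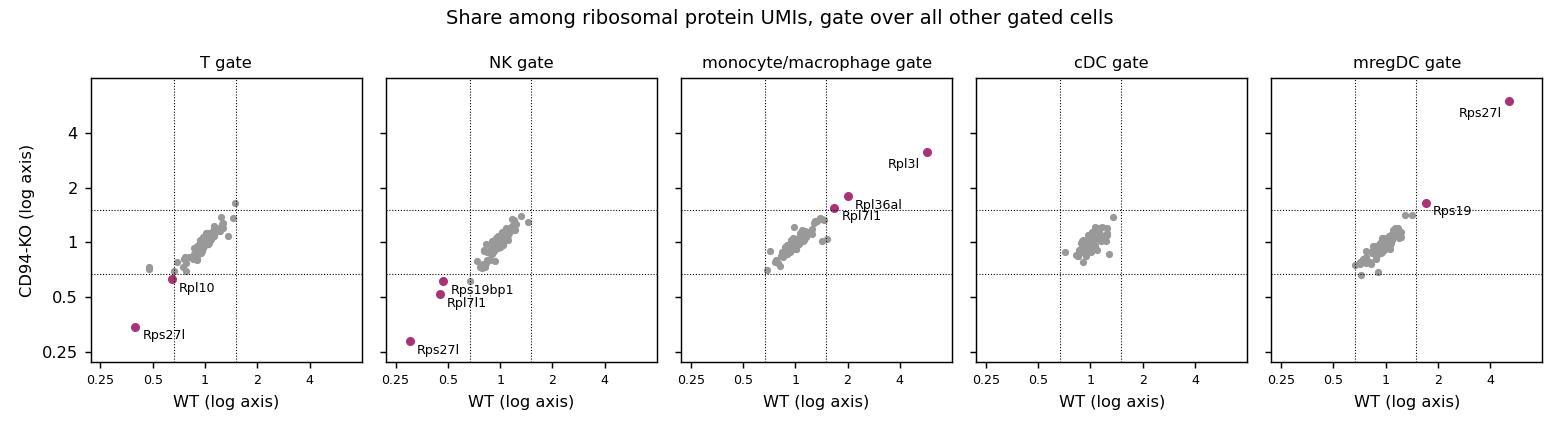
Share of each member among ribosomal protein UMIs of a gate over its share in all other gated cells, WT (x axis) against CD94-KO (y axis), both log axes, for members with at least 20 UMIs in each library; dotted lines mark 1.5-fold and purple dots with names passed it in both libraries. Rps27l lies at 5.12 and 6.00 in the mregDC gate and at 0.302 and 0.285 in the NK gate.

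Rps27l, the p53-inducible copy of Rps27, gave the largest departure. It was at 1604 CPM in WT and 1883 CPM in CD94-KO in the mregDC gate, against 412 and 361 CPM in the monocyte/macrophage gate, 575 and 460 CPM in the cDC gate, 241 and 214 CPM in the T gate and 225 and 221 CPM in the NK gate. Among these 5 gates the mregDC gate was highest and the T and NK gates were lowest in both libraries, and the T and NK intervals overlapped within each library. Its share among ribosomal protein UMIs was 5.12-fold and 6.00-fold that of other cells in the mregDC gate, and 0.398-fold and 0.344-fold in the T gate. The IL-17 type T cells were at 0.309-fold and 0.290-fold. The small cDC1 gate (14 and 11 cells) was at 674 and 678 CPM, which is 1.57-fold and 1.53-fold of other cells by this share.

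The main copy Rps27 did not follow. Rps27, which encodes a small subunit protein, was at 3948 and 3265 CPM in the mregDC gate, 5998 and 5398 CPM in the T gate and 2765 and 2484 CPM in the monocyte/macrophage gate. Rps27l therefore took 28.9% [27.8 to 30.0] of the UMIs of the pair in the WT and 36.6% [35.6 to 37.6] in the CD94-KO mregDC gate, but 3.69% and 4.43% in the NK gate and 13.0% and 12.7% in the monocyte/macrophage gate. This percentage compares gates, not the copies, since UMIs of different transcripts are not on 1 scale. The mregDC gate was mixed: 77 of 138 WT and 114 of 197 CD94-KO cells had at least 20 UMIs of Cd74, the class II chaperone that dendritic cells express highly. Limited to these cells, Rps27l was at 1658 and 1861 CPM. The T marker genes Cd28, Lck and Icos were at or below 8.62 CPM in the mregDC gate in each library.

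Rps19, a small subunit protein whose human counterpart is mutated in Diamond-Blackfan anaemia, was also high in the mregDC gate by its share among ribosomal protein UMIs. It was at 4286 CPM in WT and 3744 CPM in CD94-KO there, against 2327 and 2127 CPM in the monocyte/macrophage gate and 3367 and 3040 CPM in the cDC gate. By level the NK gate (3799 and 3165 CPM) and the T gate (3649 and 3226 CPM) were closer. The B gate, with 11 and 21 cells, was higher at 5710 and 5217 CPM. Its share among ribosomal protein UMIs was 1.70-fold and 1.66-fold that of other cells. Rps19bp1, which encodes its binding protein, was in contrast at 27.6 and 21.8 CPM in the mregDC gate and at 34.9 and 36.3 CPM in the NK gate, where its share was 0.470-fold and 0.609-fold that of other cells. Its level in the monocyte/macrophage gate was 32.8 and 31.4 CPM, which gives NK over monocyte/macrophage ratios of 1.07 and 1.15 where the median over the members was 2.01 and 1.91.

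Rpl36al, the intronless copy of the X-linked Rpl36a, had nearly the same level in lymphocytes and macrophages. It was at 911 CPM in WT and 978 CPM in CD94-KO in the T gate, 988 and 973 CPM in the NK gate and 1010 and 966 CPM in the monocyte/macrophage gate. The dendritic gates were higher, with 1169 and 1187 CPM in the cDC gate and 1302 and 1367 CPM in the pDC gate (46 and 29 cells). Rpl36a was at 1729 and 1490 CPM in the T gate and 2266 and 1960 CPM in the NK gate but only 945 and 827 CPM in the monocyte/macrophage gate. As a share among ribosomal protein UMIs, Rpl36al was 2.01-fold and 1.79-fold that of other cells in the monocyte/macrophage gate. In the stroma gate (87 and 36 cells) it was at 650 and 588 CPM, 0.458-fold and 0.397-fold of other cells by that share. Of the pair's UMIs, Rpl36al took 51.7% and 53.9% in the monocyte/macrophage gate, 30.4% and 33.2% in the NK gate and 21.1% and 20.8% in the stroma gate.

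Rpl7l1, a relative of Rpl7 that acts in ribosome assembly, differed little in level between the NK and monocyte/macrophage gates in CD94-KO and more in WT. It was at 60.1 and 52.0 CPM in the monocyte/macrophage gate, 44.9 and 47.5 CPM in the NK gate and 39.6 and 53.5 CPM in the T gate. In the cDC gate it was at 60.5 and 71.6 CPM and in the pDC gate at 76.3 and 65.4 CPM, from at most 63 UMIs each. Its share among ribosomal protein UMIs was 1.68-fold and 1.55-fold that of other cells in the monocyte/macrophage gate and 0.450-fold and 0.520-fold in the NK gate. Rpl7 itself was at 1457 and 1379 CPM in the monocyte/macrophage gate and 2760 and 2492 CPM in the NK gate.

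Rpl10, an X-linked large subunit gene, was low in the T gate by share. It was at 2496 CPM in WT and 2320 CPM in CD94-KO in the T gate, close to the 2260 and 2283 CPM of the monocyte/macrophage gate, while the NK gate reached 4153 and 3856 CPM and the pDC gate 4064 and 4307 CPM. Its share among ribosomal protein UMIs was 0.644-fold and 0.628-fold that of other cells in the T gate. Within the T gate the share was low in CD8 T cells (0.661-fold and 0.599-fold), CD4 conventional T cells (0.610-fold and 0.550-fold) and regulatory T cells (0.596-fold and 0.506-fold). In IL-17 type T cells, at 2793 and 2692 CPM, the share did not pass 1.5-fold in both libraries. A processed copy, Rpl10-ps3, shares 85.7% of the 31-base words of Rpl10, and how reads common to both were assigned was not tested.

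Rpl13a, named above, was at 1.61-fold and 1.76-fold of other cells by its share among ribosomal protein UMIs in IL-17 type T cells. A high level was not particular to them: CD8 T cells were at 5544 CPM in WT and 5330 CPM in CD94-KO, and the whole T gate at 4716 and 4889 CPM. The last of the 12 cases was Rpl3l, known as the copy of Rpl3 used in heart and skeletal muscle. It had 53 and 95 UMIs in the monocyte/macrophage gate, or 4.69 and 4.57 CPM, and 5.73-fold and 3.14-fold the share of other cells. That gate was not the highest: the mregDC gate was at 8.62 and 10.3 CPM, from 10 and 18 UMIs. The neutrophil gate was at 30.6 and 24.2 CPM, from only 1 and 3 UMIs. With each cell weighed the same in place of summed UMIs the monocyte/macrophage share ratio was 1.40 and 1.15, which is no longer past 1.5-fold. The 10 cells of that gate with the highest Rpl3l counts held 30.2% and 23.2% of its UMIs there. Without them the ratio was 4.07 and 2.43.

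Gates with fewer than 50 cells in a library held further departures, which were looked at after the data were seen and rest on few cells. Rpl31, a large subunit protein, was at 3667 CPM in the 46 WT and 3908 CPM in the 29 CD94-KO cells of the pDC gate, against 889 and 958 CPM in the monocyte/macrophage gate and at most 1503 CPM in the NK and T gates, and 2211 and 2668 CPM in the stroma gate. By share among ribosomal protein UMIs that was 3.28-fold and 2.90-fold of other cells. The stroma gate held 8 of these cases. Rpl22l1, the copy of Rpl22, was at 246 and 248 CPM there, against 1071 and 922 CPM in the NK gate and 427 and 398 CPM in the monocyte/macrophage gate, a share of 0.285-fold and 0.327-fold. Of the UMIs of Rpl22 and Rpl22l1, the copy took 7.86% and 8.498% in the stroma gate but 31.6% and 29.9% in the NK gate and 28.9% and 25.4% in the T gate. Rps2 (2.14-fold and 1.92-fold) and Rps19bp1 (2.49-fold and 1.95-fold) were high in the stroma gate, while Rps29 and Rps9 lay between 0.548-fold and 0.630-fold. In the neutrophil gate Rps27 was at 2.19-fold and 2.09-fold and Rps9 at 2.23-fold and 1.999-fold, from 81 and 208 UMIs and 71 and 207 UMIs.

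**Figure D4:**
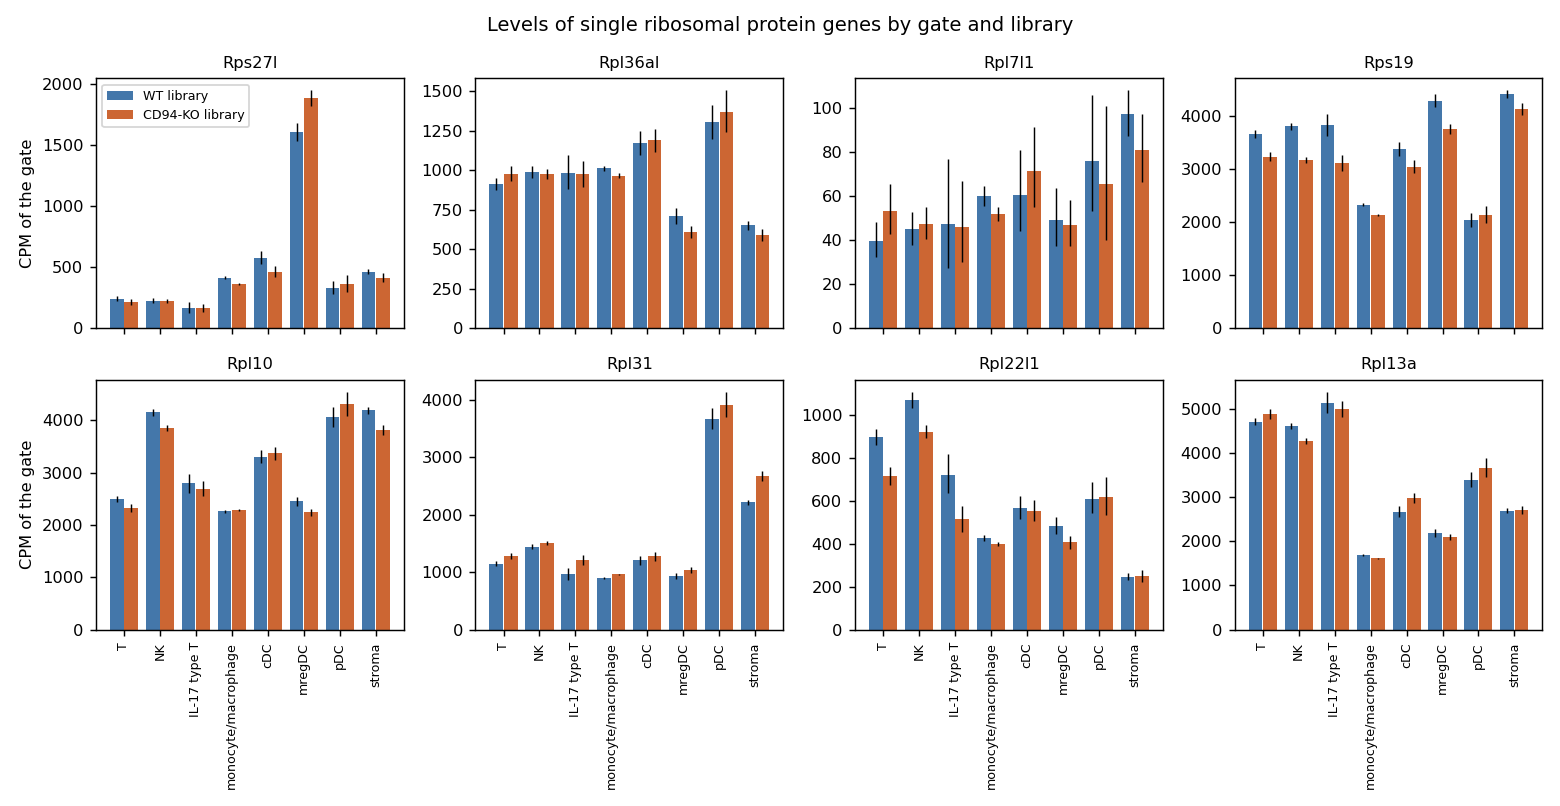
Levels of 8 ribosomal protein genes (y axis, CPM of the gate, from 0) in 8 gates (T, NK, IL-17 type T, monocyte/macrophage, cDC, mregDC, pDC and stroma) for the WT and CD94-KO libraries; black lines are exact 95% Poisson intervals of the counts. Among these gates Rps27l is highest in the mregDC gate (1604 and 1883 CPM), Rpl31 in the pDC gate (3667 and 3908 CPM) and Rpl22l1 lowest in the stroma gate (246 and 248 CPM).

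Between the genotypes the ribosomal protein share was lower in CD94-KO in most gates. Over all kept cells it was 23.1% in WT and 19.8% in CD94-KO, a ratio of 0.856 [0.855 to 0.856]. In the gates with at least 50 cells in each library the ratio was closer to 1: it was 0.894 [0.892 to 0.897] in the NK gate, 0.915 [0.912 to 0.919] in the T gate, 0.946 [0.945 to 0.948] in the monocyte/macrophage gate and 0.927 [0.922 to 0.932] in the mregDC gate. In the cDC gate it was 1.008 [1.002 to 1.015]. The gates with fewer cells spread more widely, with 0.716 in the mast/basophil gate (4 and 14 cells), 0.738 in the neutrophil gate, 0.883 in the B gate, 0.883 in the cDC1 gate, 0.939 in the stroma gate and 1.07 [1.06 to 1.083] in the pDC gate. The 2 libraries also differed in makeup: the monocyte/macrophage gate held 24.7% of kept WT cells and 44.7% of kept CD94-KO cells, and the stroma gate 1.98% and 0.787%. These percentages count cells, whereas the share over all kept cells weighs each cell by its UMIs. Mitochondrial transcripts moved the same way as the ribosomal share, with 1.86% of UMIs in the WT and 1.57% in the CD94-KO NK gate and 1.98% and 1.44% in the monocyte/macrophage gate. The nuclear RNAs Malat1 and Neat1 with the rRNA-linked Gm42418 and AY036118 together took 4.02% and 4.75% of UMIs in the NK gate, 4.91% and 5.66% in the T gate and 5.18% and 4.48% in the monocyte/macrophage gate. With these and the mitochondrial UMIs taken out of the denominator, the ratio stayed below 1 over all kept cells and in the NK and monocyte/macrophage gates. The values are given with the other processing alternatives, and the cause of the difference was not tested. With trimmed-mean scaling (TMM) in place of total UMIs, which moved all NK gate log2 ratios by -0.12, the NK ratio was 0.821.

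In the larger gates no member passed 1.5-fold between the libraries. Of the 83 members with at least 100 UMIs in the NK gate, 0 were at least 1.5-fold higher or lower in CD94-KO, against 5.65% and 0.872% of 5735 genes tested. The same held for 83 members in the T gate (7.18% and 2.75% of all genes), 85 in the monocyte/macrophage gate (1.44% and 2.29%) and 85 over all kept cells (2.9% and 10.2%). The ratios leaned to 1 side: 75 of 83 were under 1 in the NK gate with a median of 0.905, 71 of 83 in the T gate with a median of 0.909, and 73 of 85 in the monocyte/macrophage gate with a median of 0.954. Over all genes tested the medians were 1.09, 1.06 and 0.995. In the cDC gate 34 of 82 were under 1, and 1 member, Rps27rt, passed 1.5-fold at 1.66 [1.15 to 2.41] from 47 and 92 UMIs, where 4.47% of all genes were higher and 2.63% lower. In the mregDC gate 0 of 82 passed (4.49% and 2.04% of all genes). In the smaller sets within gates 0 members passed in either direction: 0 of 81 in IL-17 type T cells (5.5% and 0.889% of all genes higher and lower), 0 of 83 in C1q-high (2.35% and 2.69%) and 0 of 85 in C1q-low macrophages (1.55% and 1.54%). The same was found for Arg1 macrophages (0 of 83, with 3.38% and 2.68%) and Nos2 or Cxcl9 macrophages (0 of 83, with 2.88% and 2.01%). Without cycling cells, 0 of 83 passed in the T gate (6.19% and 2.95%), 0 of 83 in the NK gate (6.3% and 0.99%) and 0 of 85 in the monocyte/macrophage gate (1.49% and 1.77%), and 0 of 83 passed in the ungated cells (4.47% and 1.42%). As a description of members that share both libraries, Spearman's rho between transcript length and the ratio was 0.05 over 83 members in the NK gate, 0.04 over 83 in the T gate and 0.05 over 85 in the monocyte/macrophage gate.

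**Figure D5:**
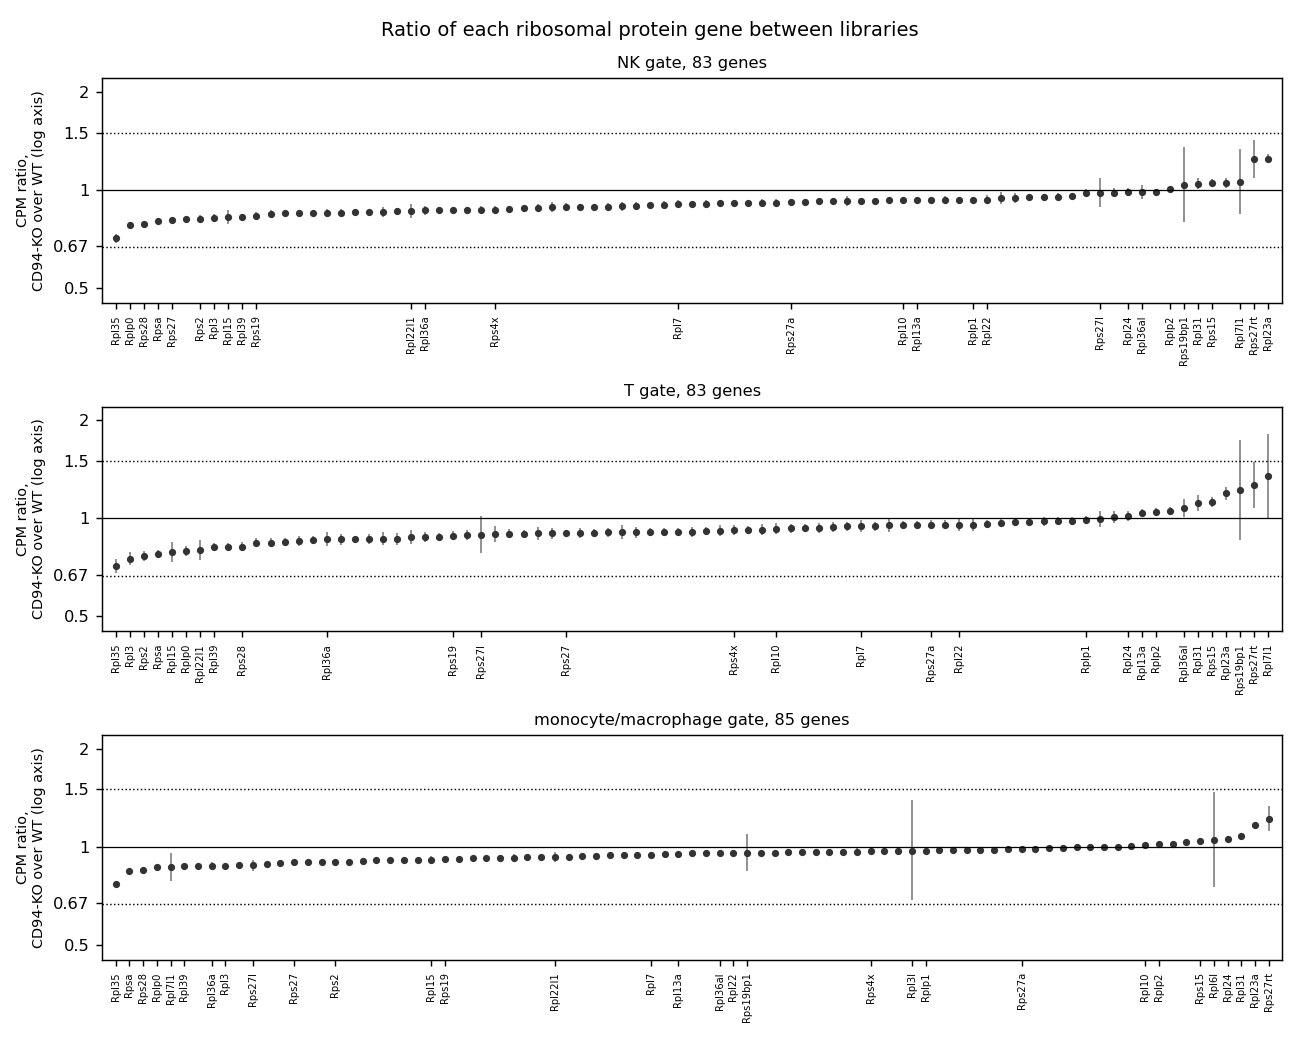
CPM ratio CD94-KO over WT (y axis, log) of each member with at least 100 UMIs in the NK, T and monocyte/macrophage gates, sorted by ratio within each gate, with names for members the text describes; vertical lines are exact 95% counting intervals and dotted lines mark 1.5-fold. Rpl35 is the lowest in each gate, and no member reaches a dotted line.

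At the low end the same large subunit gene came up throughout. Rpl35, a protein near the exit of the peptide tunnel, was at 2574 CPM in WT and 1826 CPM in CD94-KO in the NK gate (ratio 0.709 [0.686 to 0.733]), 2071 and 1478 CPM in the T gate (0.714 [0.680 to 0.749]) and 1383 and 1065 CPM in the monocyte/macrophage gate (0.770 [0.755 to 0.786]). The ratio was computed in 15 sets with at least 50 cells in each library, which overlap and include all kept cells and the ungated cells. Rpl35 was the lowest or the next to lowest member in all 15, with ratios between 0.679 and 0.830. Rplp0, the P-stalk protein that recruits elongation factors, was at 3931 and 3056 CPM in the NK gate (0.778 [0.758 to 0.798]) and 2011 and 1739 CPM in the monocyte/macrophage gate (0.865). Its stalk partners differed from it. Rplp1 was at 7650 and 7137 CPM in the NK gate, and Rplp2 at 4703 and 4733 CPM there and 4455 and 4670 CPM in the T gate.

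Other members at the low end came from both subunits. Rpsa, which is also known as the laminin receptor, was at 5131 and 4118 CPM in the NK gate (0.803) and 5071 and 3941 CPM in the T gate (0.777). Rps28 was at 4532 and 3561 CPM in the NK gate (0.786) and 2826 and 2389 CPM in the monocyte/macrophage gate (0.846). Rps2 had a ratio of 0.765 in the T gate and 0.692 over all kept cells, where it was at 3709 and 2565 CPM. Rps2 was also the gene with high values in the stroma gate, which held a larger part of the WT library. Rpl3, a large subunit protein that reaches toward the peptidyl transferase centre, was at 2462 and 1852 CPM in the T gate (0.752), Rpl15 at 945 and 745 CPM there (0.789), and Rpl39, at the tunnel exit, at 4084 and 3123 CPM over all kept cells (0.765). Rps27 was at 5886 and 4768 CPM in the NK gate (0.810). Rps27a, which is made as a fusion with ubiquitin, was at 4898 and 4480 CPM in the NK gate and 3222 and 3179 CPM in the monocyte/macrophage gate, and Rps4x at 3850 and 3345 CPM and 1816 and 1757 CPM.

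At the high end stood Rpl23a and Rps27rt, each among the highest members (the highest 5 in the 4 main sets, the highest 2 elsewhere) in 12 of the 15 sets. Rpl23a, another protein of the tunnel exit, was at 2219 CPM in WT and 2768 CPM in CD94-KO in the NK gate (1.25 [1.21 to 1.29]), 1843 and 2198 CPM in the T gate (1.19 [1.14 to 1.25]) and 1174 and 1374 CPM in the monocyte/macrophage gate (1.17 [1.15 to 1.19]). Of its 31-base words 83.2% occur in other genes' transcripts, and how such reads were assigned was not tested. Rps27rt was at 125 and 156 CPM in the NK gate (1.24 [1.09 to 1.42]) and 62.4 and 76.2 CPM in the monocyte/macrophage gate (1.22 [1.12 to 1.34]). Since Rps27 and Rps27rt share most of their sequence, their sum is the safer measure, and it was at 6012 and 4924 CPM in the NK gate (0.819 [0.802 to 0.836]) and 6128 and 5563 CPM in the T gate (0.908 [0.885 to 0.931]).

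Of the 82 members measured in the NK, T, monocyte/macrophage, cDC and mregDC gates alike, 5 had a ratio above 1 in each (Rpl31, Rplp2, Rps15, Rps27rt and Rpl23a) and 32 below 1 in each. Ratios under 1 were found for 33.5% of all genes tested in the NK gate, 39.9% in the T gate and 51.5% in the monocyte/macrophage gate. In the cDC and mregDC gates these shares were 46.5% and 46.0%. Genes on 1 side in all 5 gates were counted for the members only. With TMM scaling the NK ratios of Rpl31 (0.960), Rplp2 (0.924) and Rps15 (0.963) and the T ratio of Rplp2 (0.989) lay below 1, while Rpl23a (1.15) and Rps27rt (1.14) stayed above 1 in the NK gate. Among less abundant members, Rpl7l1 was at 1.06 [0.841 to 1.33] in the NK gate. In the T gate Rpl7l1 was at 1.35 [1.004 to 1.82] and Rps19bp1 at 1.23 [0.858 to 1.74], both from few UMIs. In the monocyte/macrophage gate Rpl31 was at 1.078 [1.05 to 1.10], Rpl24 at 1.06 [1.04 to 1.076] and the pseudogene Rpl6l at 1.05 [0.754 to 1.47], while Rpl7l1 was at 0.865 [0.785 to 0.954].

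The copies of gene pairs showed small differences of their own. In the mregDC gate Rps27l was at 1604 CPM in WT and 1883 CPM in CD94-KO (1.17 [1.11 to 1.24]) while Rps27 was at 3948 and 3265 CPM. In the cDC gate Rps27l was at 575 and 460 CPM (0.800 [0.697 to 0.919]). Rpl22l1 was at 722 and 513 CPM in IL-17 type T cells (0.711 [0.597 to 0.846]) and at 896 and 715 CPM in the T gate, while Rpl22 was at 2202 and 2105 CPM there. Rpl39l, best known from the testis, had 20 UMIs in the CD94-KO and 1 UMI in the WT mregDC gate, and the 20 lay in 2 cells.

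Other genes of translation were compared between the genotypes too, and in the NK gate 5.65% of all genes tested were at least 1.5-fold higher and 0.872% lower. There 0 of 6 elongation factor and 0 of 16 initiation factor genes passed 1.5-fold, with median ratios of 0.908 and 0.937. Eef1d was lowest among the elongation factors (419 and 341 CPM, 0.813) and Eef2 highest (1012 and 1052 CPM, 1.04). Eif3a (232 and 302 CPM, 1.30) and Pabpc1 (703 and 851 CPM, 1.21) were highest and Eif3g (99.3 and 75.3 CPM, 0.758) lowest of the initiation factors. Of 17 biogenesis genes measured in the NK gate 1 passed 1.5-fold, Myc, the transcription factor that drives ribosome production, which was at 12.6 CPM in WT and 32.7 CPM in CD94-KO (2.59 [1.79 to 3.82]). Of the other 16, 0 passed, with Nolc1 at 51.7 and 66.7 CPM (1.29) and Nop16 at 23.6 and 18.1 CPM (0.768). In the monocyte/macrophage gate 2 of 20 biogenesis genes were at least 1.5-fold lower, Dkc1 (17.6 and 11.4 CPM) and Nop16 (19.4 and 12.9 CPM), where 2.29% of all genes were lower. Over all kept cells 2 of 21 were lower, Dkc1 (43.7 and 23.6 CPM) and Nop58 (133 and 85.8 CPM), which is near the 10.2% of all genes that were lower.

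Of all genes tested in the NK gate, 5.65% were at least 1.5-fold higher in CD94-KO and 0.872% lower. In the T gate these shares were 7.18% and 2.75%, and in the monocyte/macrophage gate 1.44% and 2.29%. Among regulators of TOP transcripts, a list that includes the member Rps6, 0 of 6 passed 1.5-fold in the NK gate. At the high end were Larp1 at 75.7 and 101 CPM (1.34 [1.13 to 1.58]) and Rps6kb1, an S6 kinase, at 34.6 and 45.6 CPM (1.32 [1.03 to 1.70]). At the low end was Rps6 at 2797 and 2500 CPM (0.894). In the T gate 0 of 6 passed and in the monocyte/macrophage gate 0 of 8, where Mtor was at 9.39 and 12.9 CPM (1.37 [1.09 to 1.73]) but Larp1 at 105 and 96.7 CPM (0.921 [0.857 to 0.990]) and Rptor at 18.4 and 15.6 CPM (0.845 [0.708 to 1.011]). Of the subunit genes outside the name rule, Gnb2l1, which encodes RACK1, was at 2917 and 2572 CPM in the NK gate (0.882) and the ubiquitin-like fusion gene Fau at 5806 and 5421 CPM (0.934). The snoRNA host gene Snhg12 was at 87.0 and 57.4 CPM in the NK gate (0.660 [0.548 to 0.794]) and 86.8 and 57.6 CPM in the T gate (0.664 [0.517 to 0.848]), past 1.5-fold in both. In the monocyte/macrophage gate its ratio was 0.892 [0.780 to 1.021]. Snhg6, the other snoRNA host gene of the list, had ratios of 1.03 (NK), 0.994 (T) and 1.12 (monocyte/macrophage). Of 70 mitochondrial ribosomal protein genes in the NK gate, 1 was at least 1.5-fold lower, Mrps18b at 21.3 and 11.8 CPM, near the share of all genes. A ratio under 1 was found for 46 of the 70, with a median of 0.957 over the list. Among all genes tested there 33.5% were under 1, with a median of 1.09.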

How the data were processed

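Each library was deposited as a matrix of raw UMI counts per gene and barcode, whose file headers name Cell Ranger 5.0.0 as the authors' counting software. The libraries read 3′ ends, and barcodes not assigned to cells were taken out, per the labels' protocols. The submitters' processing notes name mm10 and Seurat 4.0, and the annotation is not given in the sources used here.

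From these counts, barcodes with at least 500 UMIs, 300 genes and under 10% mitochondrial UMIs were kept. Scrublet (scanpy 1.11.5) called 1 and 0 doublets by its own threshold, so the 4% of cells with the highest score were removed from each library instead. A cell entered a gate with at least 3 UMIs from at least 2 genes of a single marker list. The marker lists were, for example, Cd3d, Cd3e, Cd3g, Cd5 and Cd6 for T cells and Ncr1, Klrb1c, Klre1, Klri2 and Sh2d1b1 for NK cells. UMIs were summed per gate and library, which gave totals of 36482364 UMIs in WT and 42210515 in CD94-KO over all kept cells. Shares carry Clopper-Pearson, levels Poisson and ratios conditional binomial intervals (95%, scipy 1.17.1), and a difference was counted from 1.5-fold. Intervals cover counting error only.

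Genes were named by rule: the stalk proteins, Rpsa, Rps27a and the gene pairs, the 5 largest and 5 smallest genotype ratios in the main sets and 2 in others, and the departures by gate. A few genes that met the rule are not reported here. The members and lists were chosen with earlier results of these data known. Calculations were tested on simulated counts, and ran in Python 3.11.15, numpy 2.4.6, pandas 2.3.3 and R 4.3.3 with edgeR 4.0.16 for TMM factors only. Alternatives covered barcode filters, doublets, gate thresholds, cell weighting, the denominator, TMM and low-count filters.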

Additional observations from a re-analysis of the deposited data

Results flagged for a closer look

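The ribosomal protein share was higher in the CD94-KO than in the WT library in the cDC gate (ratio 1.008) and in the pDC gate (1.072, from 46 and 29 cells), while the interval lay below 1 in 8 of 10 gates examined. The difference between gates was not tested.

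Rows whose symbols carry -ps, the processed copies left out by the name rule, held 5650 UMIs in the WT and 6592 in the CD94-KO library. There were 16 such rows, and they took 0.0143% of kept UMIs in each library. The largest were Rpl23a-ps3 with 1498 and 1743 UMIs and Rpl10-ps3 with 1239 and 1613 UMIs.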

How the results depend on the processing

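No paired analysis was possible because each genotype had 1 library, and for the same reason no replicate could be left out. Of 289 recomputed share ratios, counts and departures, 0 reversed direction, but a count of members could by its definition not reverse. Among share ratios and counts, 37 moved and 52 stayed the same. Among departures of single members, 38 moved and 162 stayed the same. A ratio was said to move when it left the counting interval of the main result. A count was said to move when it changed by more than 1.5-fold or from 0. Genotype ratios of single members were not among these, and with TMM those of Rpl31 (0.960), Rplp2 (0.924) and Rps15 (0.963) in the NK gate and Rplp2 (0.989) in the T gate went from above to below 1. The CD94-KO over WT share ratios moved as follows. Without a barcode filter they were 0.867 over all kept cells, 0.921 in the T gate and 0.953 in the monocyte/macrophage gate. With at least 1000 UMIs per barcode the ratio over all kept cells was 0.854. Without doublet removal it was 0.858 over all kept cells and 0.897 in the NK gate. With gates of at least 2 UMIs it was 0.919 (T) and 0.949 (monocyte/macrophage), and with at least 5 UMIs 0.941 (T), 0.902 (NK) and 0.951 (monocyte/macrophage). With each cell weighed the same it was 0.868 (all kept), 0.932 (T) and 0.959 (monocyte/macrophage). Without mitochondrial, Malat1, Neat1, Gm42418 and AY036118 UMIs it was 0.852 (all kept), 0.898 (NK) and 0.934 (monocyte/macrophage). With TMM it was 0.878 (all kept), 0.864 (T), 0.821 (NK) and 0.9498 (monocyte/macrophage).

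The T over monocyte/macrophage ratio was 1.67 in CD94-KO without doublet removal, 1.71 in WT and 1.66 in CD94-KO with gates of 2 UMIs, 1.74 and 1.72 with 5 UMIs, 1.77 and 1.72 with each cell weighed the same, and 1.70 in CD94-KO with the smaller denominator.

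Counts of members past 1.5-fold between the libraries moved from 0 to 1 over all kept cells by share among ribosomal protein UMIs (Rpl3l, 1.56), to 1 in the T gate with at least 1 UMI (Rpl3l, 1 and 2 UMIs), and to 1 in the NK gate with TMM (Rpl35, 0.651). With at least 20 UMIs the NK count was 1 (Rpl6l, 16 and 38 UMIs) and with at least 1 UMI it was 2 (Rpl6l and Rpl39l). The monocyte/macrophage count was 1 with either filter (Rpl39l, 15 and 8 UMIs). With gates of at least 10 cells, chosen after seeing the data, 31 departures were counted in place of 12. Rpl7l1 in the monocyte/macrophage gate (1.49) and Rps19bp1 in the NK gate (0.706), both in CD94-KO, missed 1.5-fold, the first without its 10 top cells and the second with each cell weighed the same, and Rpl3l missed it with each cell weighed the same (1.40 and 1.15). The cause was not tested.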
